A study of Homo sapiens with 10 samples.

Results

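SOX2, its overlapping long noncoding transcript SOX2-OT and 7 further SOX genes (SOX4, SOX7, SOX9, SOX12, SOX13, SOX15 and SOX21) were followed in A253 cells, a human squamous cell carcinoma line of the salivary gland. The 9 genes were taken by name from a table of 58735 genes. The study asked what loss of DUSP1, a phosphatase that switches off MAP kinases, does to these cells, and RNA was sequenced from 3 groups of 2 libraries each. The control carried a guide RNA against dTomato, and the clones Cl1 and Cl10 carried guides on either side of exon 2 of DUSP1. All of the cells had been transduced with a puromycin vector for the guides and with lentiCas9-Blast, and they were grown in DMEM with fetal bovine serum. Cl1 and Cl10 are each 1 single-cell clone, heterozygous for the deletion of exon 2. The study selected them because its western blots showed no DUSP1 protein in either. The other 4 of the 10 samples of the series, from an experiment that targeted SOX2 itself, were not analysed here. The study says in general that its knockdown experiments were repeated with biological replicates, but not that these RNA libraries came from separate cultures, so the p-values measure only the spread between these libraries, which may be technical. Both clones were compared with the same 2 control libraries, and Cl10 was also compared directly with Cl1. In each comparison an effect of the deletion cannot be told apart from other traits of the single clone.

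SOX proteins are transcription factors that bind the minor groove of DNA through an HMG box and bend it, usually together with a partner factor. They fall into subgroups by sequence. SOX2 maintains stem cells and progenitors of many epithelia, and in squamous tumors it is known as a lineage factor whose gene is often gained, while SOX9 and SOX4 are associated with progenitor states of glandular epithelium.

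Control replicates 1 and 2 had totals of 66584988 and 53223425 counts, the Cl1 libraries 70986593 and 49840300, and the Cl10 libraries 57635596 and 47016495. Levels are given as CPM, that is, counts scaled to library size with TMM over the 6 libraries. DUSP1 had 12.9 and 11.1 CPM in the control, 5.28 and 6.15 in Cl1, and 8.61 and 7.22 in Cl10. All 4 clone libraries lay below both control libraries, and the groups did not overlap. DUSP1 fell by 1.07 on the log2 scale in Cl1 (SE 0.15, adjusted p = 0.000292, edgeR's quasi-likelihood test) and its value in Cl10 was -0.59 (SE 0.13, adjusted p = 0.0113, same test). Without Cl10 replicate 2 the value in Cl10 was -0.48, with an adjusted p of 0.0794. A count summed over the gene cannot tell transcripts with exon 2 from those without it.

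Markers of squamous basal epithelium were abundant, with all 9 above 1 CPM in every library and a summed level of 13060 and 13210 CPM in the control, 15110 and 15120 in Cl1, and 13500 and 12900 in Cl10. KRT5 was the most abundant of them in the control and Cl1, and KRT14 lay just above it in Cl10 (4781 and 4526 CPM against 4725 and 4471). All 6 salivary acinar markers stayed under 1 CPM in every library, with PRR4 the most abundant on average at 0.125 to 0.346 CPM and a summed level of 0.574, 0.523, 0.534, 0.713, 0.427 and 0.333 CPM from control replicate 1 to Cl10 replicate 2, so RNA of the secretory cells of the gland was close to absent. Among the 6 fibroblast markers LUM was at 0 counts and COL1A2, DCN and PDGFRB were under 1 CPM, while COL1A1 had 17.95 to 31.7 CPM and COL3A1 11.7 to 18.9, each lowest in Cl10. The summed fibroblast level was 49.8 and 44.3 CPM in the control, 45.8 and 48.7 in Cl1, and 29.8 and 31.5 in Cl10. Of 5 endothelial markers KDR was at 0 and only VWF passed 1 CPM (2.64 to 7.72), with sums of 4.65 and 3.12, 6.13 and 8.11, and 4.54 and 3.58 CPM in the control, Cl1 and Cl10. Of 6 leukocyte markers only CD14 passed 1 CPM (6.09 to 13.5), with sums of 6.56 and 7.68, 14.1 and 10.5, and 10.3 and 9.11 CPM. The 4 myoepithelial markers summed to 22.8 and 22.2 CPM in the control, 20.6 and 21.1 in Cl1, and 41.3 and 41.7 in Cl10. The higher sum in Cl10 was OXTR alone (17.7 in each control library, 37.9 and 38.4 in Cl10). ACTA2 was lower in both clones (1.44 and 1.65 in the control, 0.43 and 0.69 in Cl1, 0.154 and 0.270 in Cl10). MYH11 had 2.49 to 3.21 CPM throughout, and CNN1 was under 1 CPM. Whether the shifts of COL1A1, COL3A1, OXTR and ACTA2 in Cl10, or of ACTA2 in Cl1, have any part in the SOX values was not tested.

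The sequences that define the clones are the guide sites in DUSP1, shown from hg38 with the PAM in capitals. The first lies in intron 1 at chr5:172770388-172770407 and the second in intron 2 at chr5:172769936-172769955, both on the plus strand, and the 146 bases of exon 2 (chr5:172770161-172770306) lie between them.
Intron 1 site: gctggaagtttacatcggaaAGG
Intron 2 site: ggaactaagcccatttgcctGGG
Both guides were also searched over 1047119 bases around SOX2 and SOX2-OT, at 95788 sites of either strand that are followed by NGG. The closest site of each guide had 5 mismatches. They lie in introns 4 and 5 of SOX2-OT, at chr3:181450631-181450650 on the minus strand and at chr3:181593321-181593340 on the plus strand. No background was computed for such matches, and the genome outside this region and DUSP1 was not searched. Whether any site outside DUSP1 was cut was not tested.
Closest to the intron 1 guide: gcttgaagttaaaatctgcaAGG
Closest to the intron 2 guide: ggcactaatcccatttgtaaGGG

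SOX2 (ENSG00000181449) is a gene of 1 exon at chr3:181711925-181714436 on the plus strand of hg38. It lies in intron 7 of the canonical transcript of SOX2-OT (ENSG00000242808), which runs along the same strand at chr3:180989762-181836880, and the genes share no exon bases in GENCODE v44. Of the 9 genes, 6 had an entry among the RefSeq promoters of GRCh38.p14, with 3 starts for SOX2-OT and 8 entries in all (SOX7, SOX9 and SOX15 had none). The SOX2-OT starts are numbered among these entries only. Their windows lie in introns 1, 3 and 5 of its canonical transcript, so the bases before the annotated gene are not among them. Since SOX2 and SOX2-OT fell together in both clones, 250 bases before their starts are shown, with matches to the AP-1 letters TGANTCA and the SOX core letters ACAANG, searched on both strands, in capitals.
SOX2, chr3:181711675-181711924, plus strand: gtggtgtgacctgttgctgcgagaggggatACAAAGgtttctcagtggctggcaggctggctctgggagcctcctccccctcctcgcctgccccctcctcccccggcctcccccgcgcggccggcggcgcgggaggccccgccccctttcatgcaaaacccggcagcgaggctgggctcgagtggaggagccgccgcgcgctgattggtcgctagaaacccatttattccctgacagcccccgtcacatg
SOX2-OT first start, chr3:181056430-181056679, plus strand: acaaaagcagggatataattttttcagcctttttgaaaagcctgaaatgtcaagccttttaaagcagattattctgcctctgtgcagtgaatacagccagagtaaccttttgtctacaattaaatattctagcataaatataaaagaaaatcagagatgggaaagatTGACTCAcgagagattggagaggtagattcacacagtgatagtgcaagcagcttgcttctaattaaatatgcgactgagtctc
SOX2-OT second start, chr3:181174894-181175143, plus strand: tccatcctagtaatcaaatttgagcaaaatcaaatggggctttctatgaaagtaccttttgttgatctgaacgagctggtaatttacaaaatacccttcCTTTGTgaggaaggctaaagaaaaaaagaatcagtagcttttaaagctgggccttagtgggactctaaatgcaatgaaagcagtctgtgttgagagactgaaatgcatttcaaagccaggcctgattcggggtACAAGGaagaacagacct
The SOX2 window held 1 SOX core match, 220 bases before the start, and no AP-1 match. The first SOX2-OT window held 1 AP-1 match and the second held 2 SOX core matches, while the third start, at chr3:181610084-181610333, had neither. Of 35116 promoter windows of 250 bases, 6.57% held the AP-1 letters and 30.9% the SOX core letters. A match is a description of the letters in these windows only.

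SOX2, the progenitor factor of the SOXB1 subgroup, had 80.2 and 86.9 CPM in control replicates 1 and 2, 57.8 and 59.0 in Cl1, and 24.99 and 25.1 in Cl10. The 3 groups did not overlap, with the control highest, Cl1 between and Cl10 lowest, and the gaps were wider than the spread within any group. SOX2 fell by 0.51 on the log2 scale in Cl1 (SE 0.11, adjusted p = 0.00464, edgeR's quasi-likelihood test) and fell by 1.73 in Cl10 (SE 0.084, adjusted p = 4.47e-05, same test), or 1.43-fold and 3.32-fold. The direct comparison of Cl10 with Cl1 gave -1.22 (SE 0.062, adjusted p = 2.32e-08, same test). In these bulk samples, fewer cells with SOX2 and less SOX2 RNA per cell cannot be told apart. With Cl1 left at 1 library the fall in Cl1 no longer passed, at -0.50 without replicate 1 (adjusted p = 0.0892) and -0.53 without replicate 2 (adjusted p = 0.066), while the value itself ran from -0.58 to -0.45 over all alternatives.

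SOX2-OT, a noncoding transcript whose introns house SOX2, was counted 85 and 77 times in the control, 33 and 22 times in Cl1, and 17 and 5 times in Cl10, or 1.25 and 1.44 CPM, 0.490 and 0.448 CPM, and 0.290 and 0.104 CPM. It was low in every library, both clones lay below the control, and Cl10 lay below Cl1. Its log2 fold change was -1.50 for Cl1 (SE 0.29, adjusted p = 0.00274, edgeR's quasi-likelihood test) and -2.70 for Cl10 (SE 0.40, adjusted p = 0.00208, same test). The value for Cl10 was -3.65 without Cl10 replicate 1 and -2.20 without Cl10 replicate 2, and it passed either way. The direct comparison of the clones gave -1.20 (SE 0.48, adjusted p = 0.0527, same test) and did not pass. That value rested on the Cl10 libraries, at -2.15 without Cl10 replicate 1 (adjusted p = 0.0158) and -0.69 without Cl10 replicate 2 (adjusted p = 0.369), and it passed with the replicate number as a block (-1.23, adjusted p = 0.0354) and with no filter on low counts (-1.19, adjusted p = 0.0247). The sample labels name a stranded library kit and the study's methods name another kit. The strand setting of the counting was not given in the sources used here, which leaves SOX2-OT and antisense genes uncertain. In GENCODE v44, 13 of the 32836 exon bases of SOX2-OT are shared with a gene on the other strand, DNAJC19. On the same strand, 232, 276 and 108 of these bases are shared with genes that carry no symbol. Also, spliced SOX2-OT reads and unspliced reads across SOX2 were not separated.

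SOX21, a SOXB2 factor known for opposing SOXB1 activity, had 2 to 10 counts per library, at most 0.183 CPM, and did not pass the filter on low counts in the reported fits. A count of 3, the floor used here for counting error only, equals 0.0441 to 0.0624 CPM in these libraries.

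**Figure D1:**
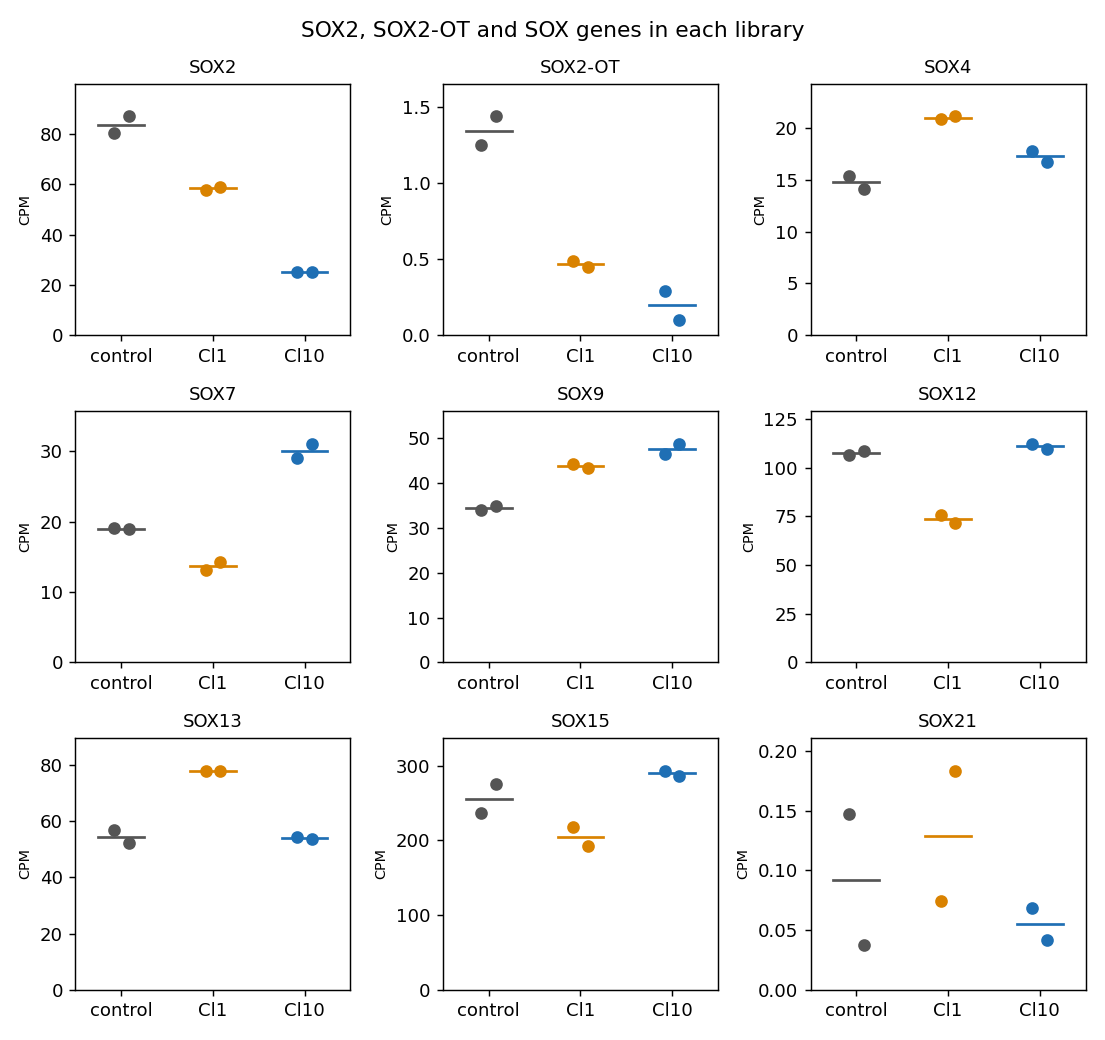
Level in CPM (vertical axes, each starting at 0) of the 9 genes in the control, Cl1 and Cl10, with 1 point per library and a line at the mean of each group. SOX2 and SOX2-OT step down from the control to Cl1 to Cl10, SOX7 lies below the control in Cl1 and above it in Cl10, and SOX21 stays under 0.2 CPM.

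These genes were chosen with earlier results of these data known, so the counts below describe them and are no test of the set. Of the 8 genes tested, 7 passed an adjusted p under 0.05 in Cl1, where 25.1% of 20153 genes passed. The 3 that were higher (SOX4, SOX9 and SOX13) stand beside 12.4% of all genes called higher, and the 4 that were lower (SOX2, SOX2-OT, SOX7 and SOX12) beside 12.8% called lower. In Cl10, 4 of the 8 passed, 2 higher (SOX7 and SOX9, beside 20.6% of all genes) and 2 lower (SOX2 and SOX2-OT, beside 21.8%), a share close to the 42.5% of 19875 genes that passed there. Between the clones 6 of 8 passed, where 49% of 19818 genes did, with SOX7, SOX12 and SOX15 higher in Cl10 (24.9% of all genes) and SOX2, SOX4 and SOX13 lower (24.1%). The median log2 fold change of the 8 genes was -0.39 in Cl1, 0.12 in Cl10 and -0.075 in Cl10 against Cl1, and over all genes tested it was -0.013, -0.011 and -0.0012. The count in Cl1 was lower with either Cl1 library left out and higher without control replicate 1, and the count over all genes moved with it. The values moved less. Without Cl1 replicate 1 or 2, SOX2 had -0.50 and -0.53, SOX4 0.52 and 0.51, and SOX7 -0.41 and -0.53. The SE of SOX2 was then 0.20 in both fits, against 0.11 with all libraries, since the spread came from the control libraries alone. Of these 8 genes, past a 2-fold change together with an adjusted p under 0.05 stood SOX2-OT in Cl1, SOX2 and SOX2-OT in Cl10, and SOX2 and SOX7 between the clones. Over all genes tested, 1520 of 20153, 2667 of 19875 and 2131 of 19818 did so in these comparisons.

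**Figure D2:**
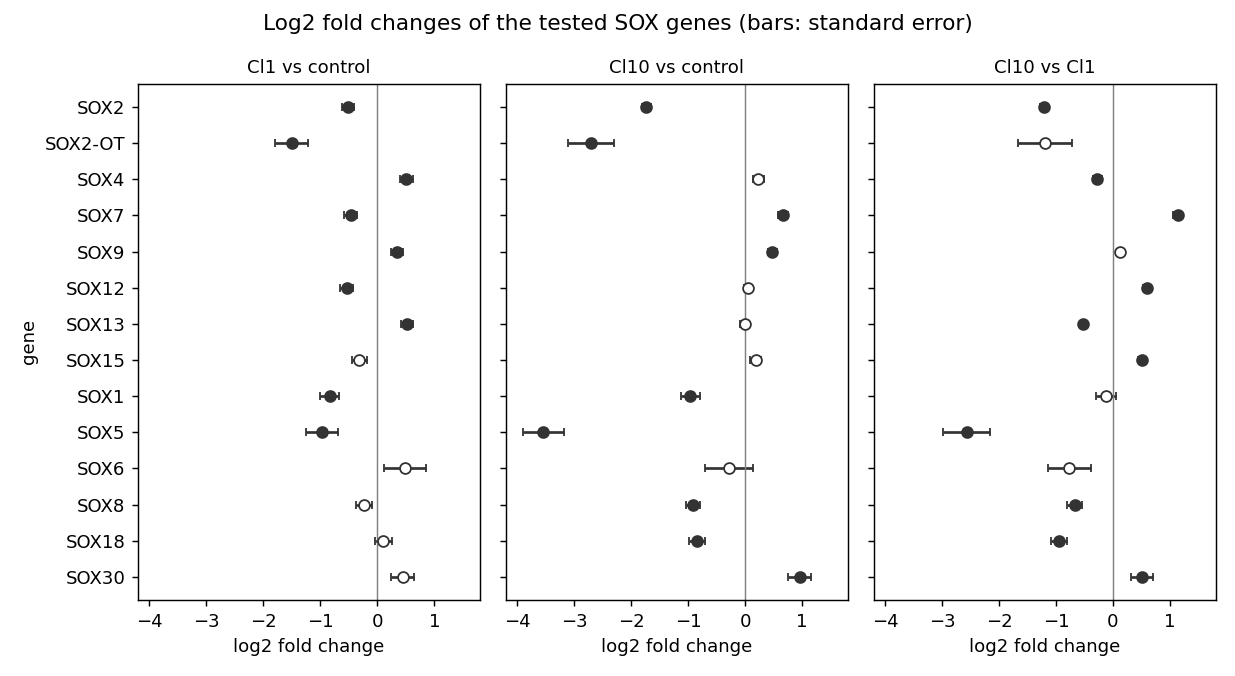
Log2 fold change (horizontal axes) of the SOX genes that passed the filter, for Cl1 against control, Cl10 against control and Cl10 against Cl1, with bars for the standard error. Filled points passed an adjusted p under 0.05, and the largest fall is that of SOX5 in Cl10, at -3.54.

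SOX4, a SOXC factor of progenitors and of many carcinomas, had 15.4 and 14.1 CPM in the control, 20.8 and 21.1 in Cl1, and 17.8 and 16.7 in Cl10. All clone libraries lay above the control libraries, with Cl1 highest. The log2 fold change of 0.51 in Cl1 (SE 0.12, adjusted p = 0.00767, edgeR's quasi-likelihood test) passed, that of 0.23 in Cl10 (SE 0.097, adjusted p = 0.0926) did not, and Cl10 lay below Cl1 by -0.27 (adjusted p = 0.0105). The call in Cl1 was lost without Cl1 replicate 1 (adjusted p = 0.0553) or 2 (0.0575), the value in Cl10 passed without control replicate 1 (0.29, adjusted p = 0.00242) and was 0.025 with the local median subtracted (adjusted p = 0.861), and the difference between the clones was lost without Cl10 replicate 2 (-0.23, adjusted p = 0.168), with library size alone (-0.20, adjusted p = 0.06) and with DESeq2 (adjusted p = 0.0507), while it was -0.50 with the local median subtracted (adjusted p = 0.000209).

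SOX12, the other SOXC factor with reads, was at 107 and 108 CPM in the control, 75.9 and 71.6 in Cl1, and 112 and 109 in Cl10. The Cl1 libraries stood alone at the low end, and the Cl10 libraries were just above the control. It fell by 0.54 on the log2 scale in Cl1 (SE 0.11, adjusted p = 0.00352, edgeR's quasi-likelihood test), had 0.050 in Cl10 (SE 0.077, adjusted p = 0.634), and differed between the clones by 0.59 (SE 0.059, adjusted p = 4.6e-06). Without Cl1 replicate 2 the value in Cl1 was -0.50, with an adjusted p of 0.093.

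SOX13, a SOXD factor without a transactivation domain that can bind TCF1, had 56.7 and 52.2 CPM in the control, 77.9 and 78.0 in Cl1, and 54.4 and 53.6 in Cl10. Cl1 was high, and Cl10 lay within the range of the control. SOX13 rose in Cl1 (log2 fold change 0.52, SE 0.11, adjusted p = 0.0043, edgeR's quasi-likelihood test) but not in Cl10 (-0.0083, SE 0.082, adjusted p = 0.945), with -0.53 between the clones (SE 0.056, adjusted p = 8.52e-06). Among the 50 tested genes nearest to SOX13 the median was 0.37 for Cl1 and -0.44 for Cl10 against Cl1. With that median subtracted SOX13 no longer passed, at 0.15 (adjusted p = 0.348) and -0.086 (adjusted p = 0.237). Without Cl1 replicate 1 or 2 the adjusted p in Cl1 was 0.0586 and 0.0504.

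SOX9, the SOXE factor of cartilage, hair follicle and duct progenitors, had 33.9 and 34.8 CPM in the control, 44.1 and 43.2 in Cl1, and 46.3 and 48.7 in Cl10. Both clones lay above the control without overlap. SOX9 rose by 0.35 on the log2 scale in Cl1 (SE 0.105, adjusted p = 0.029, edgeR's quasi-likelihood test) and by 0.47 with Cl10 (SE 0.079, adjusted p = 0.0033), and Cl10 against Cl1 gave 0.12 (SE 0.061, adjusted p = 0.109). The call in Cl1 was lost with library size alone (0.28, adjusted p = 0.0738), with no filter (0.33, adjusted p = 0.0537), with the replicate block (adjusted p = 0.0647) and without Cl1 replicate 1 (adjusted p = 0.231) or 2 (adjusted p = 0.182), and that in Cl10 without Cl10 replicate 2 (0.44, adjusted p = 0.0661). Around SOX9 the 50 nearest genes had a median of -0.67 for Cl10, and with it subtracted the value was 1.14 in Cl10 (adjusted p = 0.000156) and 0.72 between the clones (adjusted p = 1.9e-06). Between the clones SOX9 also passed with library size alone (0.20, adjusted p = 0.0198) and without Cl1 replicate 1 (0.14, adjusted p = 0.0397).

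SOX7, a SOXF factor best known from endothelium and endoderm, had 19.1 and 18.97 CPM in the control, 13.1 and 14.3 in Cl1, and 29.0 and 31.1 in Cl10. It lay below the control in Cl1 and above it in Cl10, and the 3 groups did not overlap. It fell by 0.47 on the log2 scale in Cl1 (SE 0.12, adjusted p = 0.0129, edgeR's quasi-likelihood test), rose by 0.66 in Cl10 (SE 0.085, adjusted p = 0.00112) and differed by 1.14 between the clones (SE 0.080, adjusted p = 2.95e-07). In Cl1 the call was lost without Cl1 replicate 1 (-0.41, adjusted p = 0.159) or 2 (-0.53, adjusted p = 0.0552) and when the median of the 50 nearest genes was subtracted (-0.28, adjusted p = 0.112). SOX7 shares 1268 of its 3215 exon bases (39.4%) with PINX1 on the same strand. The treatment of reads shared by genes is not given in the sources used here, so the counts of SOX7 are uncertain. PINX1, named here for that overlap after its values were seen, had -0.52 in Cl1 (adjusted p = 0.0211), -0.014 in Cl10 (adjusted p = 0.949) and 0.51 between the clones (adjusted p = 0.000387).

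SOX15, the SOXG factor and a relative of SOX2 that is found in skin and muscle progenitors, had 236 and 276 CPM in the control, 217 and 193 in Cl1, and 293 and 287 in Cl10. Cl1 was lowest and Cl10 highest, and the control libraries lay apart from each other. SOX15 shares 35 of its 1465 exon bases with MPDU1 on the other strand. MPDU1, named for that overlap after its values were seen, had -0.036 in Cl1, 0.51 in Cl10 and 0.55 between the clones. Neither clone passed against the control, with -0.32 (SE 0.13, adjusted p = 0.0926, edgeR's quasi-likelihood test) for Cl1 and 0.185 for Cl10 (SE 0.099, adjusted p = 0.172), while Cl10 was above Cl1 by 0.50 (SE 0.068, adjusted p = 5.48e-05). The value in Cl1 passed with library size alone (-0.39, adjusted p = 0.0322), with 1 fit over the 6 libraries (-0.32, adjusted p = 0.0381) and without control replicate 1 (-0.43, adjusted p = 0.00134), and that in Cl10 without control replicate 2 (0.29, adjusted p = 2.3e-10). These values rested on which control library was kept, since Cl1 had -0.20 without control replicate 2 (adjusted p = 0.204) and Cl10 had 0.069 without control replicate 1 (adjusted p = 0.182). Without Cl1 replicate 2 the value in Cl1 was -0.23 (adjusted p = 0.558), and with the local median subtracted that in Cl10 was -0.10 (adjusted p = 0.438) and that between the clones 0.32 (adjusted p = 0.00204).

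Levels of the 9 genes followed here, without the further SOX genes, were compared with each other per kilobase of annotated exon. In the control the order was SOX15 (175 CPM per kilobase), SOX2 (33.3), SOX12 (23.0), SOX9 (8.74), SOX13 (7.34), SOX7 (5.91), SOX4 (3.03), SOX2-OT (0.041) and SOX21 (0.0315). The libraries of neighbours in this order did not overlap, except those of SOX2-OT and SOX21. In Cl1 SOX2 was still second at 23.3 CPM per kilobase, SOX4 (4.31) and SOX7 (4.26) overlapped, and SOX21 (0.044) lay above SOX2-OT (0.0143). In Cl10 SOX12 (23.7) and SOX9 (12.1) lay above SOX2 (9.98), which was followed by SOX7 at 9.34 CPM per kilobase without overlap. SOX15 led in each group, at 140 CPM per kilobase in Cl1 and 198 in Cl10. The annotated exons of SOX2-OT sum to 32836 bases over many transcripts, which lowers its level on this scale.

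**Figure D3:**
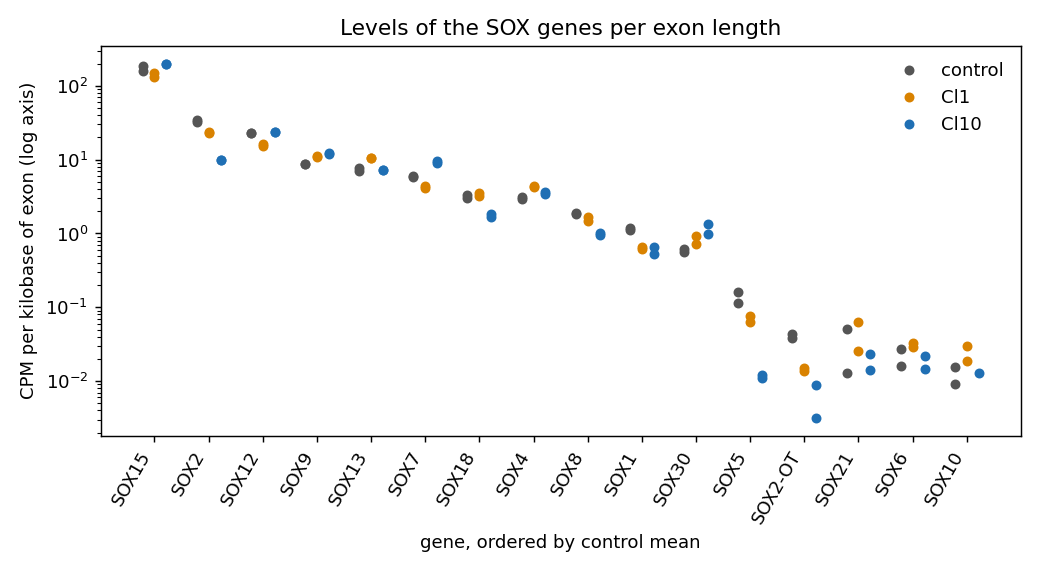
CPM per kilobase of annotated exon (log axis) of the SOX genes with reads, ordered by the control mean, with 1 point per library in the control, Cl1 and Cl10. SOX15 is highest at 175 in the control mean, SOX2 moves from 33.3 in the control to 9.98 in Cl10, and Cl10 replicate 1, with 0 counts of SOX10, is not drawn there.

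Of the 11 further SOX genes, SOX3, SOX11, SOX14 and SOX17 had 0 counts in every library, SOX10 had 0 to 7 and did not pass the filter, and 6 were tested. In Cl1, 0 were higher and 2 lower, in Cl10 1 was higher and 4 lower, and between the clones 1 was higher and 3 lower in Cl10, where 25.1%, 42.5% and 49% of all genes were called. Their median log2 fold change was -0.069, -0.88 and -0.72 in these comparisons. SOX1, the SOXB1 relative of SOX2, had 5.04 and 5.33 CPM in the control, 2.97 and 2.81 in Cl1, and 2.37 and 2.95 in Cl10, below the control in all 4 clone libraries (-0.84, adjusted p = 0.00291, and -0.96, adjusted p = 0.00344, edgeR's quasi-likelihood test).

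SOX5, a SOXD factor that acts beside SOX9 in cartilage, was counted 124 and 68 times in the control, 58 and 35 times in Cl1, and 8 and 6 times in Cl10. The groups did not overlap in CPM (1.82 and 1.27, 0.861 and 0.713, 0.137 and 0.125), with log2 fold changes of -0.97 in Cl1 (SE 0.28, adjusted p = 0.0234, edgeR's quasi-likelihood test), -3.54 in Cl10 (SE 0.36, adjusted p = 0.000451) and -2.57 between the clones (SE 0.42, adjusted p = 0.000227). With so few counts in Cl10, SOX5 was not tested there when at least 10 counts were asked of every library. Its call in Cl1 was lost with DESeq2 (adjusted p = 0.0723), without Cl1 replicate 2 (adjusted p = 0.0957) and without control replicate 1 (adjusted p = 0.139). SOX6, its SOXD partner, had 17 to 39 counts and passed in no comparison (0.49, -0.28 and -0.76, adjusted p = 0.374, 0.626 and 0.107). For Cl1 it had 0.94 when control replicate 1 was left out and 0.17 when control replicate 2 was.

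SOX8, a SOXE factor, had 8.13 and 8.51 CPM in the control, 6.62 and 7.45 in Cl1, and 4.24 and 4.58 in Cl10, and SOX18, a SOXF factor of vessels, had 5.56 and 6.15, 5.98 and 6.58, and 3.07 and 3.41. Both were lowest in Cl10 (-0.91, adjusted p = 0.00123, and -0.85, adjusted p = 0.00329) and also below Cl1 there (-0.67 and -0.95, adjusted p = 0.000815 and 0.000101). SOX30, the SOXH factor of spermatids, had 2.18 and 1.98 CPM in the control, 2.49 and 3.20 in Cl1, and 3.42 and 4.68 in Cl10, with 0.96 in Cl10 (adjusted p = 0.00835). Its difference between the clones of 0.52 (adjusted p = 0.0393) was lost with DESeq2 (adjusted p = 0.0963), with 1 fit over the 6 libraries (0.0658), without Cl1 replicate 1 (0.33, adjusted p = 0.132) and without Cl10 replicate 2 (0.28, adjusted p = 0.338).

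Genes around SOX2 on chromosome 3 were also lower in Cl10. Of the 5 tested genes nearest to SOX2 on each side, 8 of 10 were lower in Cl10 (21.8% of all genes) and 3 of 10 in Cl1 (12.8% of all genes), with 0 higher in either clone. Besides SOX2-OT, those lower in both clones were DNAJC19, 722 kilobases before SOX2 (-0.36 in Cl1, adjusted p = 0.0431, and -0.52 in Cl10, adjusted p = 0.00889, edgeR's quasi-likelihood test), and LAMP3, 1408 kilobases after it (-0.41, adjusted p = 0.0179, and -0.25, adjusted p = 0.0463). FXR1 (-0.68), TTC14 (-0.50), ATP11B (-0.54), MCCC1 (-0.44) and its antisense neighbour MCCC1-AS1 (-1.88, from 3 to 6 counts in the Cl10 libraries and uncertain by the unknown strand setting) passed in Cl10 alone, where the test between the clones passed for FXR1, ATP11B, MCCC1 and MCCC1-AS1 but not for TTC14 (adjusted p = 0.072). With DCUN1D1 (-0.21, adjusted p = 0.0114) 5 of 10 were lower in Cl10 than in Cl1, beside 24.1% of all genes. CCDC39 (-1.30, adjusted p = 0.0943) and DCUN1D1 (0.015, adjusted p = 0.894) did not pass in Cl10 against control.

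Within 5 megabases on either side, the median over 73 other tested genes was -0.097 for Cl1 and -0.39 for Cl10, and 11 and 35 of them were lower, with 3 higher in each, beside the same 12.8% and 21.8% of all genes called lower. SOX2 had a lower value than all but 9 of these genes in Cl1 and all but 5 in Cl10. The median of the 50 tested genes nearest to SOX2 was -0.061 in Cl1, -0.44 in Cl10 and -0.34 between the clones. With it subtracted SOX2 still passed in Cl1 (-0.45, adjusted p = 0.0103), in Cl10 (-1.29, adjusted p = 0.000118) and between the clones (-0.87, adjusted p = 4.73e-07). SOX2-OT passed in Cl1 (-1.44, adjusted p = 0.00383) and Cl10 (-2.30, adjusted p = 0.00479) in the same way.

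**Figure D4:**
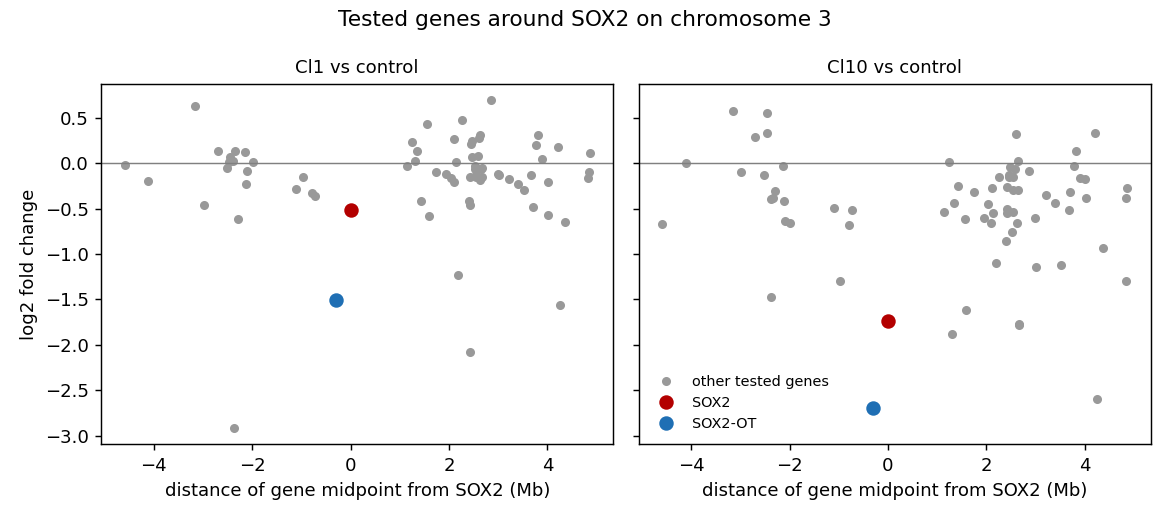
Log2 fold change against control of the tested genes within 5 megabases of SOX2, by the distance of each gene's midpoint from that of SOX2, for Cl1 (left) and Cl10 (right). The grey points centre near 0 in Cl1 (median -0.097) and below it in Cl10 (median -0.39), and SOX2 at -1.73 and SOX2-OT at -2.70 lie below most of them in Cl10.

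The genes most like SOX2 over the 6 libraries, by Euclidean distance between centred log2 CPM among 11655 genes with a mean of at least 5 CPM, were EME1 (0.141), CYS1 (0.164), KYNU (0.181), SRRM3 (0.189) and POLR3GL (0.205). EME1, at 17.8 and 18.7 CPM in the control, 12.01 and 11.9 in Cl1, and 4.94 and 5.01 in Cl10, had the same order of groups as SOX2. They lie on chromosomes 17, 2, 2, 7 and 1, and none is on the chromosome of SOX2.

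**Figure D5:**
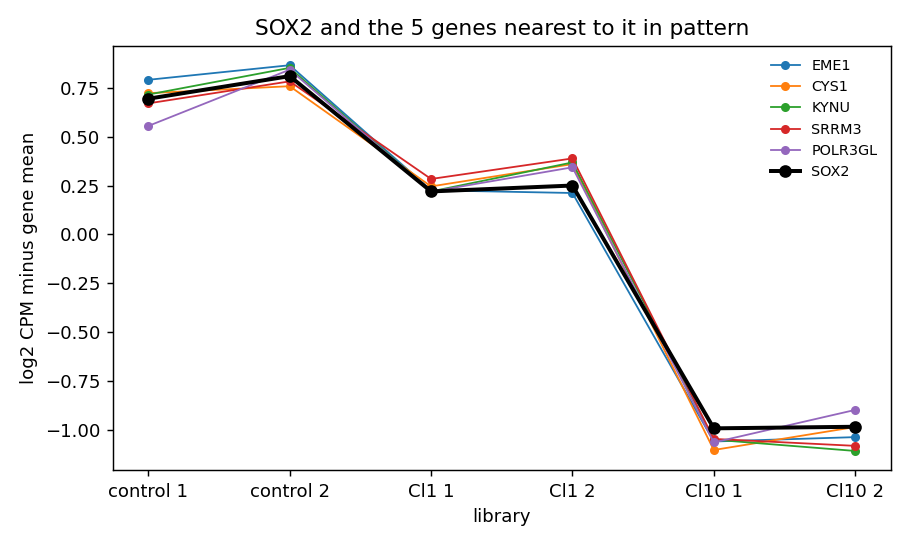
Log2 CPM minus the gene's mean over the 6 libraries for SOX2 (black) and the 5 genes with the smallest distance to it, with lines that only join the points of a gene. All 6 genes are highest in the control, lie between in Cl1 and are lowest in Cl10.

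Factors that work with SOX2 or in the same cells were described from a list of 12, of which 11 were tested. In Cl1, 1 was higher and 2 lower (median 0.046), in Cl10 3 were higher and 2 lower (median 0.15), and between the clones 4 were higher and 2 lower in Cl10 (median 0.30). These counts are near the 25.1%, 42.5% and 49% of all genes that were called. TP63 (0.37, adjusted p = 0.000325) and CHD7 (-0.24, adjusted p = 0.00328) passed only between the clones. POU5F1, the partner of SOX2 in pluripotent cells, rose from 3.75 and 5.57 CPM in the control to 10.8 and 10.0 in Cl1 (1.17, adjusted p = 0.000614, edgeR's quasi-likelihood test) and 7.72 and 7.93 in Cl10 (0.76, adjusted p = 0.0163), although its reads may be shared with processed copies of the gene and the value in Cl10 was 0.49 without control replicate 1. SALL4, another pluripotency factor, fell by 0.96 in Cl1 (adjusted p = 0.00177) and fell by 1.34 in Cl10 (adjusted p = 0.00133). KLF5, an epithelial progenitor factor, fell by 0.75 in Cl1 (adjusted p = 0.00108) and fell by 0.30 in Cl10 (adjusted p = 0.0406), where the call was lost with the replicate block (adjusted p = 0.0827) and without either Cl10 library (adjusted p = 0.345 for each). PITX1 (0.57, adjusted p = 0.00142) and POU3F1 (0.72, adjusted p = 0.0225) rose in Cl10, with 0.27 (adjusted p = 0.0867) and 0.30 (adjusted p = 0.319) in Cl1. For Cl1 POU3F1 had 0.097 when control replicate 1 was left out and 0.53 when replicate 2 was. POU3F1 lost its call in Cl10 without Cl10 replicate 2 (adjusted p = 0.0728), and PITX1 passed in Cl1 with 1 fit over the 6 libraries (adjusted p = 0.027) and without control replicate 2 (adjusted p = 0.029).

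Of 12 reported targets of SOX2, 9 were tested in Cl1, with 3 higher and 4 lower (median -0.32), and 8 in Cl10, with 1 higher and 3 lower (median -0.37), while between the clones 2 of 8 were higher and 2 lower in Cl10 (median -0.13). Over all genes 25.1%, 42.5% and 49% were called, so the counts in Cl10 and between the clones are near that share. DUSP1, the gene that the guides target, is itself in this list. It is counted among the lower genes in both clones and the higher genes between the clones, and it is part of these medians. CCND1, the cyclin D1 gene, rose in Cl1 (0.80, adjusted p = 0.000853, edgeR's quasi-likelihood test) and Cl10 (0.70, adjusted p = 0.000902), and ETV4, an ETS factor, had -0.88 (adjusted p = 0.000436) and -0.54 (adjusted p = 0.00373). With the local median subtracted CCND1 had 0.32 in Cl10 (adjusted p = 0.0229). VEGFA, an angiogenic ligand, fell by 0.44 in Cl1 (adjusted p = 0.0267) and fell by 0.71 in Cl10 (adjusted p = 0.00129). EGFR (0.59, adjusted p = 0.0214), the nodal antagonist LEFTY1 (2.14, adjusted p = 0.02, from 2 to 18 counts in the control and Cl1) and the filament gene NES (-0.32, adjusted p = 0.046) passed in Cl1. In Cl1, the calls of VEGFA (adjusted p = 0.366 and 0.0523), EGFR (0.0752 and 0.104), LEFTY1 (0.0877 and 0.126) and NES (0.298 and 0.239) were lost without Cl1 replicate 1 or 2, and those of LEFTY1 without control replicate 2 (0.116) and NES without control replicate 1 (0.0682). Also in Cl1, NES was lost with the replicate block (adjusted p = 0.0915), DESeq2 (0.0657) and DESeq2's size factors (0.0526), and VEGFA (0.0648) and LEFTY1 (0.0547) were lost with the local median subtracted. In Cl10, EGFR had 0.27 (adjusted p = 0.227) and NES -0.20 (adjusted p = 0.0974), and each passed without control replicate 1 (adjusted p = 5.38e-34 and 0.045), as did NES without control replicate 2 (adjusted p = 4.5e-05) and EGFR with no filter (0.25, adjusted p = 0.0322) and with the local median subtracted (0.72, adjusted p = 0.0133). The control libraries of EGFR lay far apart (577 and 400 CPM), and its value was 0.87 and 0.35 in Cl1, and 0.55 and 0.022 in Cl10, without control replicate 1 or 2.

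Of 12 reported targets of SOX9, all of cartilage except AMH, which is a target in the testis, 7 were tested, and 0 passed in Cl1 with edgeR (median -0.16). In Cl10, MATN3 (0.84, adjusted p = 0.0256, edgeR's quasi-likelihood test) was higher and COL9A2 (-0.85, adjusted p = 0.0402) and AMH (-0.40, adjusted p = 0.0365) lower, with a median of 0.021, and 1 was higher and 1 lower in Cl10 against Cl1 (median 0.14), where 25.1%, 42.5% and 49% of all genes were called in the 3 comparisons. In Cl10 these calls were lost without Cl10 replicate 2 (adjusted p = 0.0949, 0.149 and 0.0718), AMH also without Cl10 replicate 1 (0.203), and COL9A2 also without control replicate 1 (0.0984). DESeq2 did not call MATN3 (0.0693) or COL9A2 (0.0879) there either, and MATN3 was lost with the local median subtracted (0.0872). Without control replicate 2 AMH had -0.24 in Cl10 and kept its call. In Cl1, COL9A2 passed without Cl1 replicate 2 (adjusted p = 0.0461) or control replicate 2 (0.0259), and AMH without control replicate 1 (0.0309).

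Of 5 reported targets of the SOXC factors 4 were tested, and 1 was higher in Cl1 (median 0.30), 2 in Cl10 (median 0.60) and 3 in Cl10 against Cl1 (median 0.30), with 0 lower, beside 12.4%, 20.6% and 24.9% of all genes called higher. TEAD2 (0.16, adjusted p = 0.0445) passed only between the clones. SEMA3C, a secreted guidance cue, rose from 15.4 and 13.2 CPM in the control to 30.1 and 34.9 in Cl1 (1.19, adjusted p = 4.05e-05, edgeR's quasi-likelihood test) and 42.8 and 44.1 in Cl10 (1.61, adjusted p = 8.42e-05). EZH2, a histone methyltransferase, rose in Cl10 (0.58, adjusted p = 0.00179) and had -0.0053 in Cl1 (adjusted p = 0.981). Of 7 genes of the TCF and beta-catenin branch, with which several SOX factors interact, 6 were tested, with 3 higher and 1 lower in Cl1 (median 0.37), 2 higher and 1 lower in Cl10 (median -0.067), and 1 lower in Cl10 against Cl1 (median -0.12), beside 25.1%, 42.5% and 49% of all genes called. CTNNB1, the beta-catenin gene (0.60, adjusted p = 0.00286, and 0.61, adjusted p = 0.00121), and TCF7L2 (0.68, adjusted p = 0.00116, and 0.63, adjusted p = 0.00165) rose in both clones, and AXIN2, a feedback inhibitor of the pathway at under 1 CPM, was lower in both, at -1.56 (adjusted p = 0.0163) and -1.47 (adjusted p = 0.0233). TCF7L1 rose in Cl1 (0.71, adjusted p = 0.000508) and had -0.070 in Cl10 (adjusted p = 0.527), a difference of -0.78 between the clones (adjusted p = 1.51e-06). The call of CTNNB1 in Cl1 was lost without Cl1 replicate 1 (adjusted p = 0.052), and AXIN2 lost its calls without Cl1 replicate 2 (0.0714) or control replicate 2 (0.0897) in Cl1 and without Cl10 replicate 1 (0.104) or control replicate 2 (0.0665) in Cl10. With DESeq2 AXIN2 passed in neither clone (0.0686 and 0.0739), and with the local median subtracted it did not pass in Cl10 (0.0801).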

How the data were processed

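The deposited values are raw counts. The authors made poly(A) libraries, sequenced them paired-end, mapped reads on hg38 using HISAT2, and obtained counts from HTSeq. The submitters' processing notes also name StringTie and DESeq. Annotation, strand setting and the treatment of reads shared by genes are not given in the sources used here. Of the gene identifiers, 58207 of 58735 were found in GENCODE v44, which gave coordinates and exon lengths.

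Differential expression was tested on the counts with edgeR 4.0.16 in R 4.3.3 (filterByExpr, TMM, estimateDisp, glmQLFit, glmQLFTest), separately for Cl1 against control, Cl10 against control and Cl10 against Cl1, with Benjamini-Hochberg adjustment over all genes tested and calls at an adjusted p under 0.05. A standard error is the size of the unshrunk log2 fold change over the root of F. The fit was tested on simulated data for each comparison. Of 100 simulated 2-fold changes it recovered 66 in Cl1, 78 in Cl10 and 81 between the clones. Of 100 simulated 4-fold changes it recovered 92, 88 and 93. Library totals ran from 47016495 to 70986593 counts. Libraries of a group differed by more than counting noise, with an unadjusted p under 0.05 for 58.6%, 45.8% and 23.1% of the 15278, 15213 and 14925 genes with at least 100 counts over both libraries of the control, Cl1 and Cl10.

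Alternatives were DESeq2 1.42.0, its size factors, library size only, no filter or at least 10 counts in every library, 1 fit over the 6 libraries, the replicate block, a 2-fold threshold, the local median of 50 tested genes subtracted, and each library left out, where the lone sample left is assumed to vary like the other group. The members and the 6 gene and 6 marker lists were chosen with earlier results of these data known. Genes named are the members, DUSP1, other SOX genes tested, list genes called in any comparison (alternatives were run for those called in a clone against control), the 5 tested genes nearest to SOX2 on each side and the 5 most like it (mean CPM of at least 5, prior count of 2).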

Additional observations from a re-analysis of the deposited data

Results flagged for a closer look

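Cl1 and Cl10 were made with the same guides, and each result here is one for which the direct test of Cl10 against Cl1 passed (edgeR's quasi-likelihood test, adjusted p under 0.05), so that the effects in the clones differ. It was read for 35 genes, the SOX genes tested, DUSP1 and the list genes called in a clone against control, and 23 of them passed, where 49% of all genes did. Taking list genes that were already called can raise that count. Among the genes followed here the log2 fold change of Cl10 against Cl1 was -1.22 for SOX2, -0.27 for SOX4, 1.14 for SOX7, 0.59 for SOX12, -0.53 for SOX13 and 0.50 for SOX15. Of these, SOX7, SOX12 and SOX15 lay below the control in Cl1 and above it in Cl10, and for SOX7 alone both tests against the control passed. Among the further SOX genes it was -2.57 for SOX5, -0.67 for SOX8, -0.95 for SOX18 and 0.52 for SOX30. DUSP1 differed by 0.48, without Cl10 replicate 1 by 0.35 (adjusted p = 0.111) and after subtraction of its local median by 0.11 (adjusted p = 0.539).

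Of the partner factors it was -0.41 for POU5F1, 0.42 for POU3F1, 0.45 for KLF5 and 0.30 for PITX1. Of the reported SOX2 targets it was 0.33 for ETV4, -0.27 for VEGFA and -0.32 for EGFR. Of the SOX9 targets it was 0.76 for MATN3 and -0.24 for AMH, of the SOXC targets 0.58 for EZH2 and 0.43 for SEMA3C, and of the TCF and beta-catenin genes -0.78 for TCF7L1. With 1 library left out the call was lost for SOX4, SOX30, DUSP1, POU3F1, ETV4, VEGFA, EGFR, MATN3 and AMH. Without Cl1 replicate 2, ETV4 had 0.18 and VEGFA -0.13, and VEGFA had -0.41 without Cl1 replicate 1, all still called. Apart from the 2-fold threshold, another alternative ended it for SOX4, SOX13, SOX30, DUSP1, POU5F1 (1 fit over the 6 libraries, adjusted p = 0.0686), POU3F1, VEGFA, EGFR, MATN3 and AMH. Cl1 and Cl10 are each 1 clone, so a difference between clones and a difference in the deletion cannot be told apart. The same holds for each clone against the control, where the deletion and other traits of the clone come together. The sample labels do not call the control a clone. The groups of 2 libraries allow no test for a stray library.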

How the results depend on the processing

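Member counts here cover SOX2, SOX2-OT and the 7 genes named with them, without the further SOX genes. With a 2-fold threshold, the members called numbered 1 in Cl1, 2 in Cl10 and 2 between the clones, and all genes called numbered 1520, 2667 and 2131. With 1 library left out, 1 to 8 members and 2718 to 7146 genes were called in Cl1, and 5141 to 11888 genes in Cl10. SOX2 in Cl1 then ranged from -0.57 to -0.45 and kept its direction. Other alternatives kept these counts within 1.5 times the reported ones, and SOX2 kept its direction and its call in them. Library size alone moved the split of all genes in Cl1 from 2489 higher and 2575 lower to 1942 and 3191, and between the clones from 4932 and 4774 to 5910 and 3939. With the median of the 50 nearest genes subtracted, the direction turned for SOX12 (-0.059), SOX13 (0.17), SOX15 (-0.10) and TCF7L1 (0.22) in Cl10, PITX1 (-0.072) in Cl1 and EGFR (0.12) between the clones. EZH2 in Cl1 turned with DESeq2's size factors (0.0050) and with at least 10 counts (0.0013), and TCF7L2 between the clones with library size alone (0.029). With 1 library left out, the range crossed 0 for MATN3 (-0.24 to 0.31), AMH (-0.32 to 0.0098) and EZH2 (-0.15 to 0.13) in Cl1, for SOX13 (-0.073 to 0.045) and SOX6 (-0.60 to 0.17) in Cl10, and between the clones for SOX1 (-0.28 to 0.037), COL9A2 (-0.61 to 0.12), CTNNB1 (-0.0069 to 0.026) and AXIN2 (-0.17 to 0.35). Of these values, EGFR alone had been called in the comparison concerned. The cause was not tested. The replicate number as a block (replicate block) gave 6 members and 4841 genes in Cl1, 4 and 8681 in Cl10, and 7 and 9894 between the clones. The labels do not say that a number marks a shared culture, and differences between replicates were correlated across genes at -0.27 (control and Cl1), -0.26 (control and Cl10) and 0.0017 (Cl1 and Cl10). A crossed replicate block, chosen after seeing the data, gave 8 members and 6894 genes in Cl1 and 4 and 9927 in Cl10. Depth limits SOX21 and SOX10, and SOX2-OT and SOX5 in Cl10. With at least 10 counts in every library SOX2-OT and SOX5 were not tested in Cl10 or between the clones.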
